A study of Mus musculus with 2 samples.

Results

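The genes described here are 48 mouse genes whose products work in or on the lysosome: 11 cathepsins and 2 other lysosomal proteases (Lgmn and Tpp1), 5 lipid hydrolases with 2 lipid cofactors, 11 glycosidases, glycosylasparaginase, 5 sulfatases, 8 membrane proteins, the sorting enzyme Gnptab, and the transcription factors Tfeb and Tfe3. They were taken by symbol from the tables of genes, with no cutoff on level, but with earlier results of these data known. All 48 were found among 43346 Ensembl genes, of which 21474 were protein-coding. RNA longer than 200 nt was sequenced from the intestine of 2 newborn pups (age 0 days) of the strain B6NCrl, from 1 litter, with 1 library per pup made from 10 ng of RNA. No allele or treatment is named in the labels, the sex was not collected and the segments of the intestine are not given. Both libraries form 1 group, so the comparisons are between genes within a pup and between the littermates, and no comparison of conditions or stages can be made.

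Lysosomes are acidic organelles that break down proteins, glycans and lipids delivered by endocytosis and autophagy. Most soluble lysosomal enzymes receive a mannose phosphate tag in the Golgi apparatus and are carried to the lysosome by receptors for that tag, while the limiting membrane is protected by heavily glycosylated proteins such as LAMP1. TFEB and TFE3 are transcription factors that bind short E-box motifs near the start of many lysosomal genes. In suckling rodents, enterocytes of the distal small intestine take up milk proteins by endocytosis and digest them in large lysosomal vacuoles, before acid and pancreatic digestion mature.

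The sequences that carry the results are the E-box motifs of 5 promoters and the alternative coding ends of Lamp2. The promoters are shown because they hold the hexamer CACGTG, the core of the motif bound by TFEB and TFE3, given in capitals. They are taken from RefSeq promoters on GRCm38.p6, each written on the strand of its gene; Lamp1, Mcoln1, Ctsd, Gla and Glb1 are on chr8:13159081-13159160 (plus), chr8:3500439-3500518 (plus), chr7:142387898-142387947 (minus), chrX:134601176-134601245 (minus) and chr9:114400998-114401057 (plus).
Lamp1 promoter: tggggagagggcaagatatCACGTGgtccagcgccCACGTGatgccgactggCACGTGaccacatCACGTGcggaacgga
Mcoln1 promoter: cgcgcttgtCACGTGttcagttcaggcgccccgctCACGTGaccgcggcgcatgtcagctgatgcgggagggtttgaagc
Ctsd promoter: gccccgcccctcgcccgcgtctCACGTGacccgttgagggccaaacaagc
Gla promoter: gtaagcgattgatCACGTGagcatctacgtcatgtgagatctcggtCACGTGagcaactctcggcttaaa
Glb1 promoter: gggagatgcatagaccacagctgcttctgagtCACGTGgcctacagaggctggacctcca

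The hexamer occurred 4 times in the 80 bases before the start of Lamp1, the main protein of the lysosomal membrane, at bases -61, -45, -28 and -15 from the start (first base of each motif). It occurred 2 times before the RefSeq start of Mcoln1, the lysosomal calcium channel, and 2 times before that of Gla, alpha-galactosidase A. In GENCODE M21 Mcoln1 begins further upstream, at base 3500457, and so does Ctsd, at base 142388038 on the minus strand. The Mcoln1 hexamer at -45 and the Ctsd stretch therefore lie inside those genes as annotated there. Of the 48 genes, 41 had a promoter window in RefSeq, and 13 of these 41 held the hexamer: Arsa, Ctsa, Ctsd, Ctsf, Ctsl, Gaa, Gla, Glb1, Lamp1, Lgmn, Mcoln1, Naglu and Sgsh. By window, which runs from 250 bases before to 50 after a start, 13 of 47 lysosomal windows (27.7%) held it, against 7.15% of all 32851 windows. The longer palindrome TCACGTGA, which contains the hexamer, was in 4 of the 47 (8.51%; Ctsa, Ctsd, Gla and Mcoln1), against 0.974% of all windows. Both motifs read the same on either strand. By class, among genes with a window, the hexamer was in 4 of 9 cathepsins, 0 of 4 lipid hydrolases, 4 of 11 glycosidases, 2 of 4 sulfatases and 2 of 6 membrane proteins. It was in neither Tfeb nor Tfe3. The 13 genes with the hexamer had a median level of 83.3 TPM in pup 1 and 96.3 TPM in pup 2, against 48.1 and 52.6 TPM for the 28 genes without it. TPM is the deposited level of a gene, scaled to the length of its transcripts and to the total of the library. Both sets spanned most of the range, with means over the pups of 6.23 to 1112 TPM with the hexamer and of 2.17 to 897 TPM without it. A match of letters is a description of the window, and binding was not measured.

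Lamp2 makes proteins with different tails from alternative last exons, and the tails are shown because 1 of them dominated. Both run on the minus strand of the X chromosome in GENCODE M21 on GRCm38, Lamp2-201 on chrX:38405435-38405509 and Lamp2-202 on chrX:38421715-38421789. The capitals mark the last 12 codons before the stop, which code most of the tail on the cytosolic side.
Lamp2-201 coding end: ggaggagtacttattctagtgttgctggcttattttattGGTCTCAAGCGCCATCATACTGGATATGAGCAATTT
Lamp2-202 coding end: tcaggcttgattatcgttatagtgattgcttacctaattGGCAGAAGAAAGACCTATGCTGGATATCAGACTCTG

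The alternative coding exon ends are each 137 bases long and share 73 bases (53.3%) when laid side by side. The first codes the LAMP-2A form, the receptor of chaperone-mediated autophagy, and the second the LAMP-2B form. Lamp2-201 took 83.2% of the Lamp2 TPM in pup 1 and 84.1% in pup 2, and Lamp2-202 took 16.0% and 14.9%. The LAMP-2A transcript was the larger share in both intestines. Its lead was smaller in reads, since Lamp2-201 is 1769 nt long and Lamp2-202 3604 nt. Lamp2-201 held 13168 and 11010 expected counts in pups 1 and 2, against 5332 and 4083 for Lamp2-202.

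All 48 genes were expressed in both pups. The level was 1 TPM or more in each pup for 48 of 48, against 59.1% of all protein-coding genes. It was 100 TPM or more in each pup for 19 of 48, against 5.78% of all protein-coding genes. Their median level was 55.9 TPM in pup 1 and 60.0 TPM in pup 2, against 12.3 and 12.8 TPM for all detected protein-coding genes. Summed, they took 0.996% of all TPM in pup 1 and 1.02% in pup 2. The spread among them was wide, since the highest mean, that of Lgmn, was 514-fold that of the lowest, Ids. The 10 highest genes held 70.5% of the summed TPM in pup 1 and 70.3% in pup 2. The SD between the pups was small beside this, with a median over the genes of 4.82% of the mean and a maximum of 13.8%, for Npc1. Part of the Npc1 level came from a short processed transcript with few reads, described below. In this bulk tissue, fewer cells of a type and less RNA per cell cannot be told apart.

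**Figure D1:**
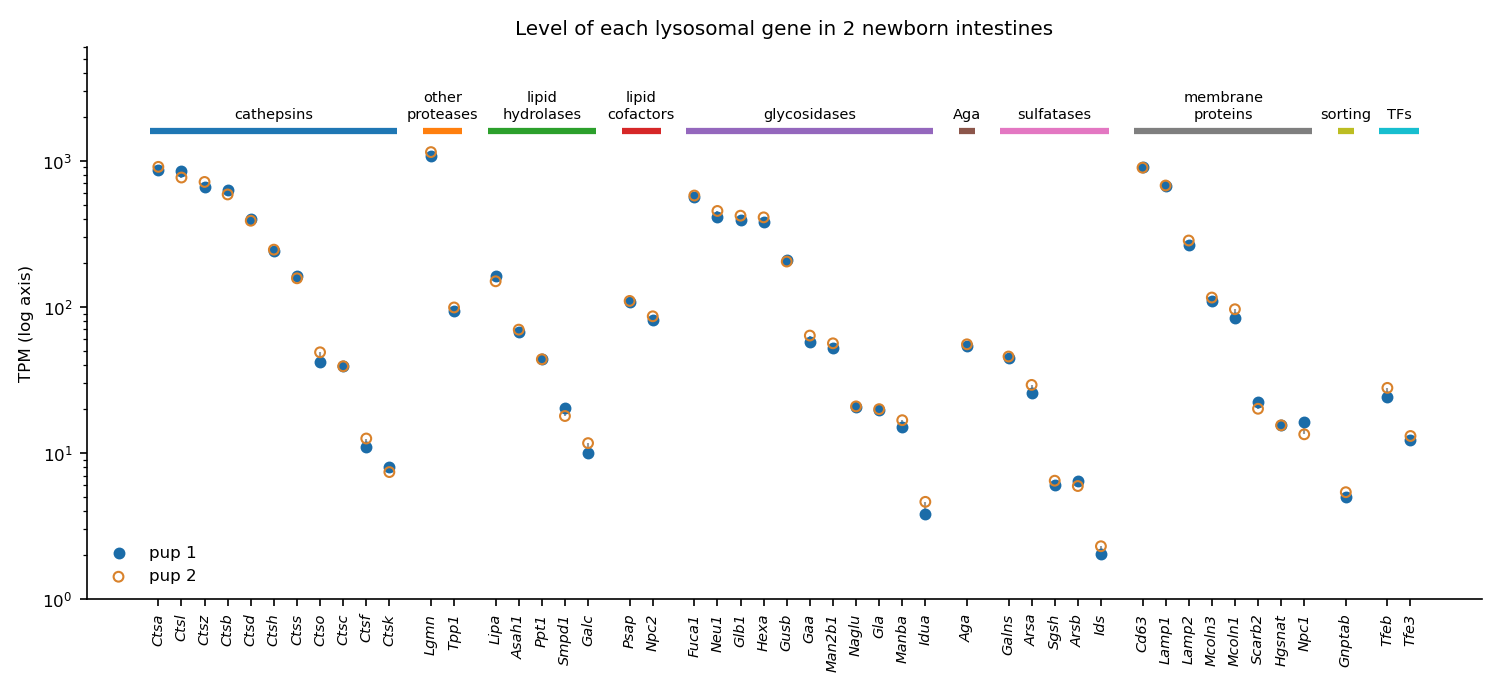
TPM (log axis) of each of the 48 lysosomal genes in pup 1 (filled points) and pup 2 (open points), ordered within each class by the mean of the pups. The genes spread over a far wider range than the pups, from Lgmn at 1078 and 1145 TPM to Ids at 2.03 and 2.30 TPM.

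The depth was 44568098 reads in pup 1 and 34797495 in pup 2, as total expected counts over genes, and the lowest count of any of the 48 genes was 355 and 282. Marker lists of intestinal cells were present in full at 1 TPM in each pup, against 59.1% of all protein-coding genes. These were 8 of 8 enterocyte markers (median 529.9 ± 2.31 TPM, SD, n = 2), 6 of 6 smooth muscle, 6 of 6 fibroblast, 5 of 5 endothelial and 5 of 5 enteric neuron markers. The pups differed in their posterior HOX genes, which mark the hind end of the body axis: the 16 genes of groups 9 to 13 summed to 14.5 TPM in pup 1 and 2.41 TPM in pup 2. The part of this difference in the ratios between the pups was not tested. The labels call the libraries biological replicates, and the smallest p that an exact sign-flip test over 2 libraries allows is 0.5, so none is printed.

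By summed TPM the proteases were the most abundant enzymes. Lgmn, legumain, cuts after asparagine and processes cathepsins into their mature chains (ENSMUSG00000021190.10, chromosome 12, 102394084 to 102439813, minus strand, 1-based on GRCm38). It stood at 1078 TPM in pup 1 and 1145 TPM in pup 2, the highest of the 48 genes, and 0.638% of detected protein-coding genes stood above it. Its reads came mostly from Lgmn-202 (80.8% and 82.3% of its TPM), with Lgmn-201 at 19.1% and 17.5%. Tpp1, which removes tripeptides from the ends of proteins, was lower, at 93.0 and 99.1 TPM in pups 1 and 2.

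Among the cathepsins, 7 of 11 reached 100 TPM in each pup, against 5.78% of all protein-coding genes. Ctsa, a serine carboxypeptidase that also stabilises Neu1 and Glb1 in a complex (ENSMUSG00000017760.11, chromosome 2, 164832873 to 164841032), stood at 857 TPM in pup 1 and 908 TPM in pup 2. Ctsl, a cysteine endopeptidase (ENSMUSG00000021477.8, chromosome 13, 64359337 to 64370890), stood at 851 and 767 TPM in pups 1 and 2. Ctsz, a cysteine carboxypeptidase, stood at 666 and 716 TPM. Ctsb, a cysteine protease that trims dipeptides as well as cutting within chains (ENSMUSG00000021939.7, chromosome 14, 63122462 to 63145923), stood at 625 and 588 TPM. These 4 genes held 76.8% of the cathepsin TPM in each pup, and their pup values did not overlap between neighbours in the order. Without transcripts not annotated as protein-coding, Ctsa stood at 754 and 808 TPM and overlapped Ctsl, so the order of these top cathepsins rests on such transcripts. Ctsd, the main aspartic protease of the lysosome, stood at 402 TPM in pup 1 and 388 TPM in pup 2. Ctsh, an aminopeptidase, stood at 243 and 246 TPM.

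Ctss and Ctsk are cathepsins best known from other cells. Ctss, which trims the invariant chain of MHC class II in antigen-presenting cells, stood at 162 TPM in pup 1 and 157 TPM in pup 2. In the macrophage marker list 13 of 15 genes passed 1 TPM, against 59.1% of all protein-coding genes. The list summed to 289 TPM in pup 1 and 279.7 TPM in pup 2. It was led by Csf1r (82.3 and 78.1 TPM), C1qb (57.3 and 54.3 TPM), Lyz2 (40.1 and 36.7 TPM) and C1qa (35.97 and 38.5 TPM). No macrophage marker was at 0, and the part of macrophages in the Ctss level was not tested. Ctsk, the collagen-cutting cathepsin of osteoclasts, was the lowest of the 11 cathepsins at 8.02 and 7.40 TPM. Of the osteoclast markers 4 of 7 passed 1 TPM, against the same 59.1% of all protein-coding genes. These were Acp5 at 141 and 138 TPM, Mmp9 at 7.76 and 7.93 TPM, Nfatc1 at 3.41 and 3.89 TPM and Ocstamp at 1.34 and 1.48 TPM. Calcr was under 0.1 TPM in both pups and Dcstamp, needed for osteoclast fusion, had no read. Ctsl exceeded Ctss by 5.06-fold (log2 2.34 ± 0.07, n = 2), and Ctsk stood at log2 -4.35 ± 0.05 relative to Ctss.

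The other cathepsins stood under 100 TPM. Ctso, a cysteine protease whose substrates are little known, stood at 41.7 TPM in pup 1 and 48.9 TPM in pup 2. Ctsc, the dipeptidyl peptidase that activates granule proteases, stood at 39.4 and 39.2 TPM. Ctsf, another cysteine protease, stood at 11.04 and 12.6 TPM. The 9 placental cathepsins of the cluster next to Ctsl, Ctsj, Ctsm and Ctsq among them, had no read in either pup. A count of 0 allows up to 3 counts per library, which is 0.0673 and 0.0862 CPM (counts scaled to the library total) in pups 1 and 2. These floors, and the intervals given further on, hold counting error alone, because reads that carry no molecular barcode can be copies of 1 molecule.

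The order of Ctsl and Ctsb depended on the length of their transcripts. Ctsl stood 1.33-fold above Ctsb in TPM (log2 0.41 ± 0.04, n = 2). In reads Ctsb was the higher, with 104364 and 75128 expected counts in pups 1 and 2, against 57267 and 39572 for Ctsl, and the log2 ratio of Ctsl to Ctsb without length was -0.90. The annotated transcripts are 1971 nt for Ctsl-201 and 4739 nt for Ctsb-201, and each took 100% of its gene. Ctsd stood below Ctsb, at log2 -0.62 ± 0.03, and at -1.87 without length. Ctsb overlaps Fdft1 on the opposite strand, by 774 bases in the longest overlap between exons. Fdft1 stood at 28.9 TPM in pup 1 and 31.8 TPM in pup 2. Of the 48 genes 13 shared exonic bases with another gene, and the share over all genes was not computed. Since no source here states whether counting used the strand, the assignment of reads in such overlaps is uncertain.

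The lipid hydrolases were mostly of moderate level. Lipa, acid lipase, which frees cholesterol and fatty acids from the lipids of endocytosed lipoproteins (ENSMUSG00000024781.11, chromosome 19, 34492318 to 34527474), stood at 162 TPM in pup 1 and 149.6 TPM in pup 2 and was the only one of the 5 at 100 TPM or more. Of all protein-coding genes 5.78% reached 100 TPM in both pups. Asah1, acid ceramidase, stood at 67.3 and 69.8 TPM. Ppt1, which removes palmitate from proteins, stood at 44.0 and 43.8 TPM. Smpd1, acid sphingomyelinase, which makes the ceramide that Asah1 cleaves, stood at 20.4 and 17.9 TPM. Galc, which removes galactose from galactosylceramide of myelin, stood at 10.0 and 11.7 TPM. The pup values of these genes did not overlap between neighbours. Asah1 exceeded Smpd1 by 3.57-fold (log2 1.84 ± 0.17, n = 2).

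Their cofactors and the cholesterol exporters were also expressed. Psap, the precursor of the saposins that present sphingolipids to hydrolases, stood at 109 TPM in pup 1 and 109.8 TPM in pup 2. Npc2, a small soluble protein that hands cholesterol to the membrane protein Npc1, stood at 81.1 and 86.2 TPM. Npc1 stood at 16.3 and 13.4 TPM, so that Npc2 exceeded it by 5.62-fold (log2 2.49 ± 0.26). For Npc1, a short processed transcript of 352 nt, Npc1-203, took 44.8% and 34.3% of the TPM, beside the full coding transcript Npc1-201 at 53.1% and 60.1%. Npc1-203 held only 66.6 and 32.06 expected counts. Without transcripts not annotated as protein-coding, Npc1 stood at 8.67 and 8.06 TPM, so its distance below Npc2 was larger. Npc1 also shares exonic bases with Rmc1 on the opposite strand (23.5 and 25.8 TPM).

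Psap was read from more than 1 transcript, and the transcripts differ in whether they hold a 9-base exon. Psap-203 took 52.2% of the Psap TPM in pup 1 and 54.4% in pup 2, and Psap-202 took 43.3% and 43.7%. The 9-base exon on chromosome 10, 60297537 to 60297545, lies in the saposin B part of the precursor and is known to be regulated between tissues. It was in 3.49% of the TPM of the transcripts that cover it in pup 1 and in 1.93% in pup 2, so the short form dominated in both intestines.

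The glycosidases spread over a wide range around a lower median. Fuca1, which removes fucose, was the highest of the 11 at 563 TPM in pup 1 and 578 TPM in pup 2. Neu1, the sialidase, stood at 409 and 453 TPM. Glb1, beta-galactosidase, stood at 394 and 421 TPM. Hexa, the alpha subunit of beta-hexosaminidase, stood at 379 and 409.6 TPM. The pup values of Neu1 and Glb1 overlapped, as did those of Glb1 and Hexa, so their order is not resolved beyond the spread between pups. The place of Fuca1 rests on short transcripts not annotated as protein-coding, which took 28.9% and 26.5% of its TPM. Its coding transcript Fuca1-201 alone stood at 400.2 and 425 TPM, overlapping Glb1. Gusb, beta-glucuronidase, stood at 208 and 204 TPM. It was the last of the 5 glycosidases, of 11, at 100 TPM or more, against 5.78% of all protein-coding genes.

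The other 6 glycosidases were lower, and their pup values did not overlap between neighbours. Gaa, which degrades lysosomal glycogen, stood at 57.6 TPM in pup 1 and 63.6 TPM in pup 2. Man2b1, an alpha-mannosidase, stood at 52.1 and 56.3 TPM. Naglu, which removes glucosamine units of heparan sulfate, stood at 20.6 and 20.8 TPM. Gla, which removes terminal alpha-galactose from glycolipids, stood at 19.7 and 19.95 TPM. Manba, beta-mannosidase, stood at 14.9 and 16.8 TPM. Idua, which removes iduronic acid from heparan and dermatan sulfate, was the lowest glycosidase at 3.84 and 4.63 TPM. Aga, which splits the bond between asparagine and sugar, stood at 54.1 and 55.4 TPM.

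Enzymes that work together differed in level. Ctsa exceeded Neu1, its partner in the multienzyme complex, by 2.05-fold (log2 1.04 ± 0.05, n = 2), while Glb1 and Neu1 differed by log2 -0.08 ± 0.04. Glb1 overlaps Tmppe on the same strand (14.5 and 16.9 TPM), by 165 bases in the longest overlap between exons. Ctsa overlaps Pltp and Neurl2, and Hexa overlaps Tmem202, each on the opposite strand and at 13.1 TPM or less in both pups.

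The sulfatases had the lowest median of the hydrolase classes. Galns, which removes sulfate from keratan sulfate, stood at 44.6 TPM in pup 1 and 45.7 TPM in pup 2. Arsa, which acts on the myelin lipid sulfatide, stood at 25.8 and 29.2 TPM. Sgsh, which removes sulfate from heparan sulfate, stood at 6.00 and 6.46 TPM, and Arsb, which acts on dermatan and chondroitin sulfate, at 6.44 and 5.94 TPM. The pup values of Sgsh and Arsb overlapped. Without transcripts not annotated as protein-coding, Arsa stood at 5.52 and 6.06 TPM and overlapped Arsb. Sgsh then stood at 4.32 and 4.53 TPM, without overlap with Arsb. The order of these 3 genes therefore rests on such transcripts. Ids, iduronate sulfatase, was the lowest of the 48 genes at 2.03 and 2.30 TPM, with 355 and 295 expected counts. Of the 6 genes under 10 TPM in both pups over all their transcripts, 3 were sulfatases (Sgsh, Arsb and Ids). The others were Ctsk, Idua and Gnptab. The share of all protein-coding genes under 10 TPM was not computed. Sgsh stood at log2 -1.72 ± 0.06 relative to Naglu, which acts after it in heparan sulfate breakdown. Sgsh overlaps Card14 and Arsb a long noncoding RNA, both on the opposite strand. The longest overlaps between exons were 839 and 1719 bases.

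The classes differed in their typical level more than the pups did. The median over members was 243 TPM in pup 1 and 246 TPM in pup 2 for cathepsins, 44.0 and 43.8 TPM for lipid hydrolases, 57.6 and 63.6 TPM for glycosidases, 6.44 and 6.46 TPM for sulfatases and 96.6 and 106 TPM for membrane proteins. Cathepsins stood above glycosidases by 4.03-fold (log2 2.01 ± 0.09, SD, n = 2), above lipid hydrolases by 5.56-fold (log2 2.48 ± 0.02) and above membrane proteins by 2.43-fold (log2 1.28 ± 0.09). Lipid hydrolases stood at 0.725-fold of the glycosidases (log2 -0.46 ± 0.11). These are differences between medians of log2(TPM + 0.1). Their size depended on the measure: without length, in CPM, the contrast of cathepsins with glycosidases was log2 0.11, with membrane proteins 0.40, with lipid hydrolases 1.32 and that of lipid hydrolases with glycosidases -1.21. With means in place of medians the contrast of cathepsins with glycosidases was 0.91 and with membrane proteins 0.60. With protein-coding transcripts alone, an alternative added after seeing the data, the contrast of cathepsins with glycosidases was 1.41. In summed TPM the cathepsins reached 3907 and 3878 TPM, the lipid hydrolases 304 and 293 TPM, the glycosidases 2122 and 2247 TPM and the membrane proteins 2081 and 2118 TPM in pups 1 and 2.

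**Figure D2:**
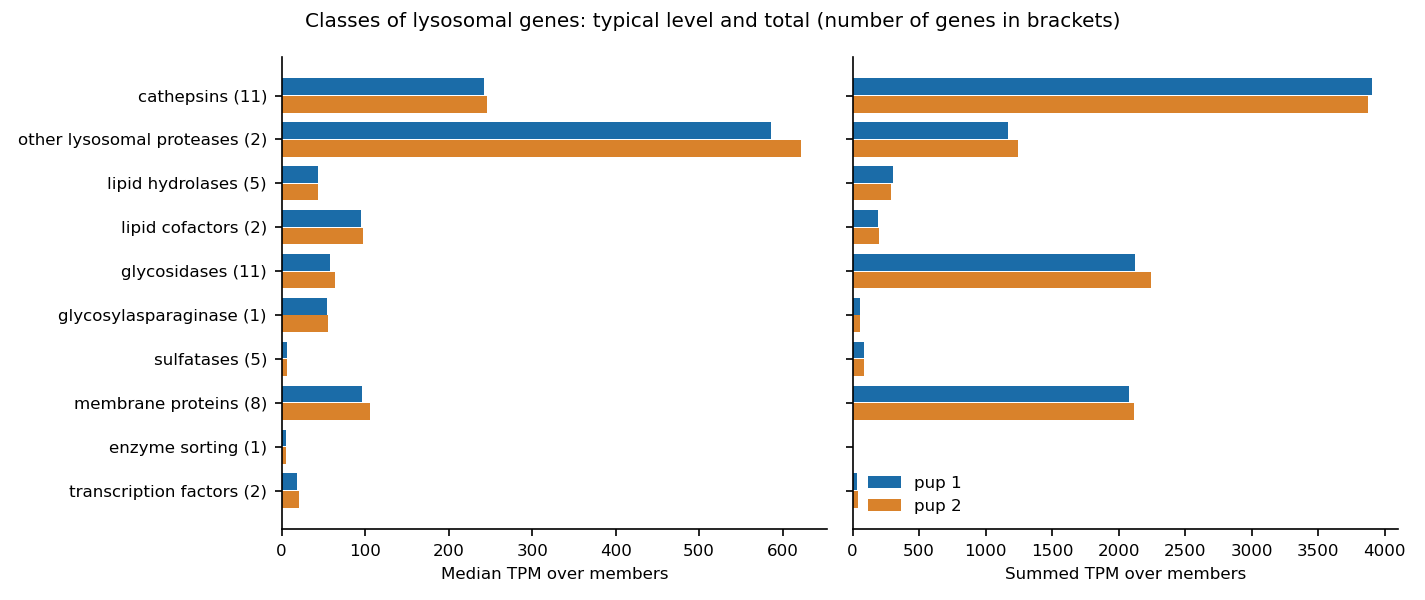
Median (left) and summed (right) TPM over the members of each class in pup 1 and pup 2, on linear axes that start at 0, with no error bars since each bar is 1 library. Cathepsins had the highest sum (3907 and 3878 TPM) and sulfatases a median of 6.44 and 6.46 TPM.

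Membrane proteins ran from the abundant Cd63, Lamp1 and Lamp2 to scarcer genes of several roles. Cd63, a tetraspanin of late endosomes and lysosomes (ENSMUSG00000025351.9, chromosome 10, 128900989 to 128912822), stood at 899 TPM in pup 1 and 896 TPM in pup 2. Lamp1 (ENSMUSG00000031447.6, chromosome 8, 13159161 to 13175338, plus strand), whose promoter holds the 4 hexamers shown above, stood at 671 and 677 TPM. Lamp2, whose coding ends are shown above, stood at 264 and 284 TPM. The values of these 3 genes did not overlap. Cd63 stood 1.33-fold above Lamp1 in TPM (log2 0.41 ± 0.01, n = 2), and without length the log2 ratio was -1.02, since Lamp1 had more reads. Lamp1 exceeded Lamp2 by 2.46-fold (log2 1.30 ± 0.07). Lamp1 also overlaps Grtp1 on the opposite strand (71.6 and 72.3 TPM).

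The channels Mcoln3 and Mcoln1 lay close together. Mcoln3, a calcium-permeable channel of endosomes and lysosomes, stood at 109.9 TPM in pup 1 and 116 TPM in pup 2, and Mcoln1, its lysosomal relative, at 83.3 and 96.3 TPM. Mcoln3 exceeded Mcoln1 by 1.26-fold (log2 0.33 ± 0.09, n = 2), and the pup values did not overlap. A short coding transcript of 468 nt, Mcoln3-202, took 28.4% and 29.5% of the Mcoln3 TPM, and Mcoln3-201 took 71.5% and 70.1%. The third relative, Mcoln2, stood at 5.23 and 5.20 TPM (named after its values were seen). Scarb2, the receptor that carries glucocerebrosidase to the lysosome, stood at 22.2 and 20.1 TPM. Hgsnat, which acetylates heparan sulfate across the membrane, stood at 15.5 TPM in each pup. That lay within the range of Npc1 over all its transcripts and above its coding transcripts alone (8.67 and 8.06 TPM).

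The sorting enzyme and the transcription factors were among the scarcer of the 48 genes. Gnptab, the catalytic subunits of the phosphotransferase that starts the mannose phosphate tag, stood at 4.96 TPM in pup 1 and 5.39 TPM in pup 2. Its partner subunit Gnptg stood at 32.8 and 33.7 TPM, and the ratio of Gnptab to Gnptg was log2 -2.66 ± 0.06 (n = 2), or -0.62 without length. Tfeb stood at 24.2 and 27.9 TPM and Tfe3 at 12.3 and 13.1 TPM, without overlap, and Tfe3 stood at log2 -1.03 ± 0.08 relative to Tfeb, or -0.41 without length. Of the other members of their family, Tfec stood at 60.3 and 73.7 TPM and Mitf at 0.53 and 0.65 TPM (both named after their values were seen).

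Several genes were read from more than 1 transcript. The counts here and in the next paragraph were made for the 48 genes alone, so they cannot be set against other genes. In 23 of the 48 genes the leading transcript took 90% or more of the gene's TPM in both pups, 18 of them with a single transcript in the tables, and in 25 it took less in at least 1 pup. The leading transcript was the same in both pups for 47 of 48. The exception was Tfe3, where Tfe3-201 took 37.5% in pup 1 and 43.2% in pup 2, and Tfe3-205 took 37.6% and 33.6%. Tfeb was shared between Tfeb-202 (53.0% and 53.3%) and Tfeb-212 (42.9% and 43.8%). Ctsd was shared between Ctsd-202 (67.4% and 66.2%) and Ctsd-201 (32.5% and 33.7%), and Gaa between Gaa-203 (59.1% and 55.2%) and Gaa-201 (40.1% and 43.3%).

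In 10 genes transcripts not annotated as protein-coding took 10% or more of the TPM in both pups (Arsa, Asah1, Ctsa, Ctsh, Ctso, Fuca1, Idua, Mcoln1, Npc1 and Sgsh). In 2 genes the leading transcript was not annotated as protein-coding in GENCODE M21. Ctsh-202, annotated for nonsense-mediated decay, took 56.7% of the Ctsh TPM in pup 1 and 55.0% in pup 2, and the coding transcripts of Ctsh stood at 101 and 104 TPM, under Ctss. Arsa-201, annotated with a retained intron, took 78.6% and 79.3%, beside the coding Arsa-202 at 20.96% and 19.3%. The shares of the scarce gene Idua moved most between the pups, with Idua-205 at 26.9% in pup 1 and 6.27% in pup 2, a difference of 20.6 points. Over the 81 transcripts at 5% or more, the median difference between the pups was 1.51 points.

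**Figure D3:**
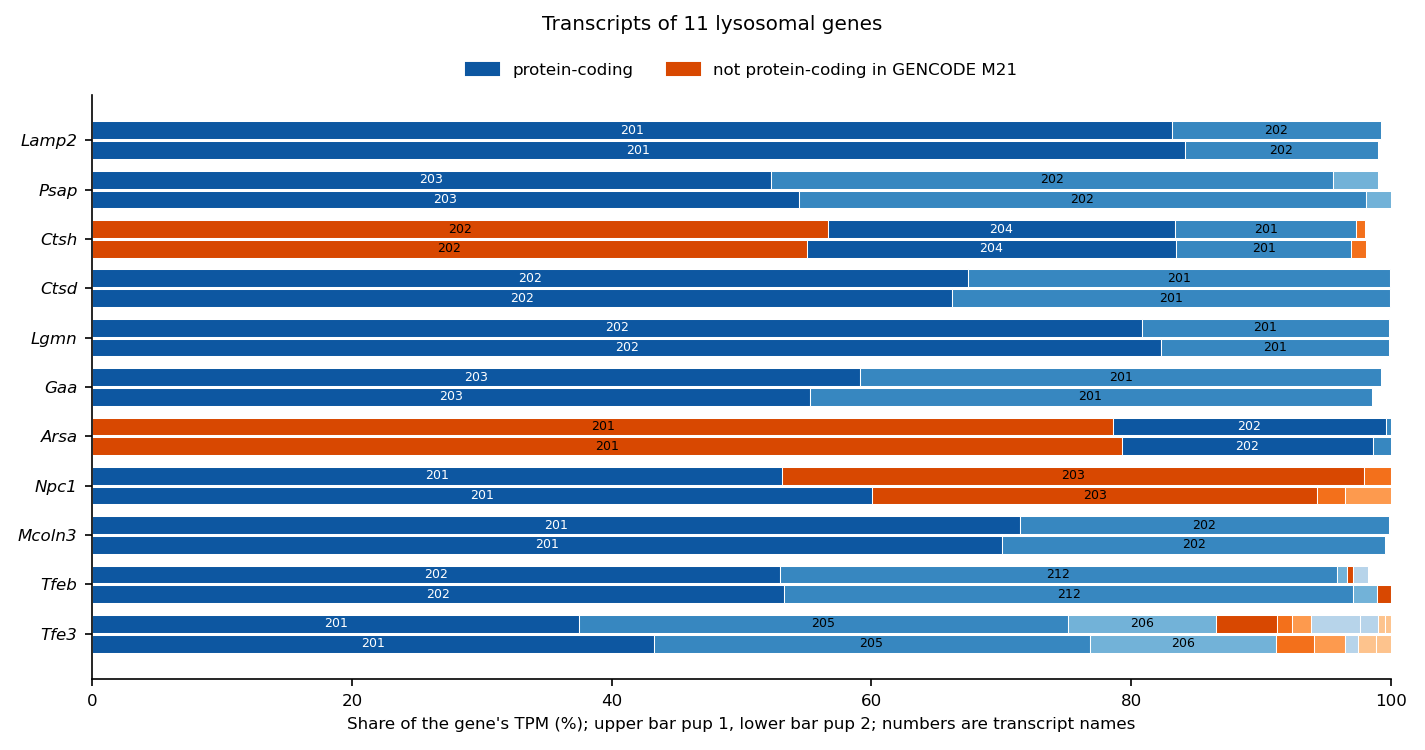
Share of each gene's TPM (percent) taken by its transcripts for 11 lysosomal genes, upper bar pup 1 and lower bar pup 2, with blue for protein-coding and orange for other transcripts; transcripts with small shares are not drawn, so a bar can end short of 100. Lamp2-201 took 83.2% and 84.1%, and the leading transcripts of Ctsh and Arsa are orange.

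Between the littermates the lysosomal genes differed little, and so did most protein-coding genes with as many reads. By counts scaled with the TMM method, the ratio of pup 2 to pup 1 ran from 0.839 for Smpd1 to 1.12 for Tfeb, with a median of 1.00. Of the 48 genes 0 had an exact 95% interval wholly above 2 or below 0.5, against 0.555% of 15862 protein-coding genes tested. The middle part of the genes, from the first to the third quartile, lay between 0.953 and 1.04, and that of 10116 protein-coding genes with at least as many reads as the lowest of the 48 lay between 0.935 and 1.05. The intervals of 12 genes lay wholly above 1 (pup 2 higher), against 16.7% of those 10116 genes, and 14 lay wholly below 1, against 23.9%. The other 22 spanned 1. The 10116 genes have only that lowest count in common and were not matched to the reads of each gene. These intervals cover counting error, so a ratio outside them shows that the 2 libraries differ and not that a condition does.

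Genes on either side of 1 came from several classes. Ctsl (0.862, 95% interval 0.851 to 0.873), Scarb2 (0.863, 0.798 to 0.932) and Lipa (0.881, 0.860 to 0.902) were lower in pup 2. Tfeb (1.12, 1.04 to 1.20), Galc (1.11, 1.03 to 1.20) and Ctso (1.07, 1.02 to 1.12) were higher in pup 2. Lgmn, the most abundant gene, stood at 1.01 (1.00 to 1.03).

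**Figure D4:**
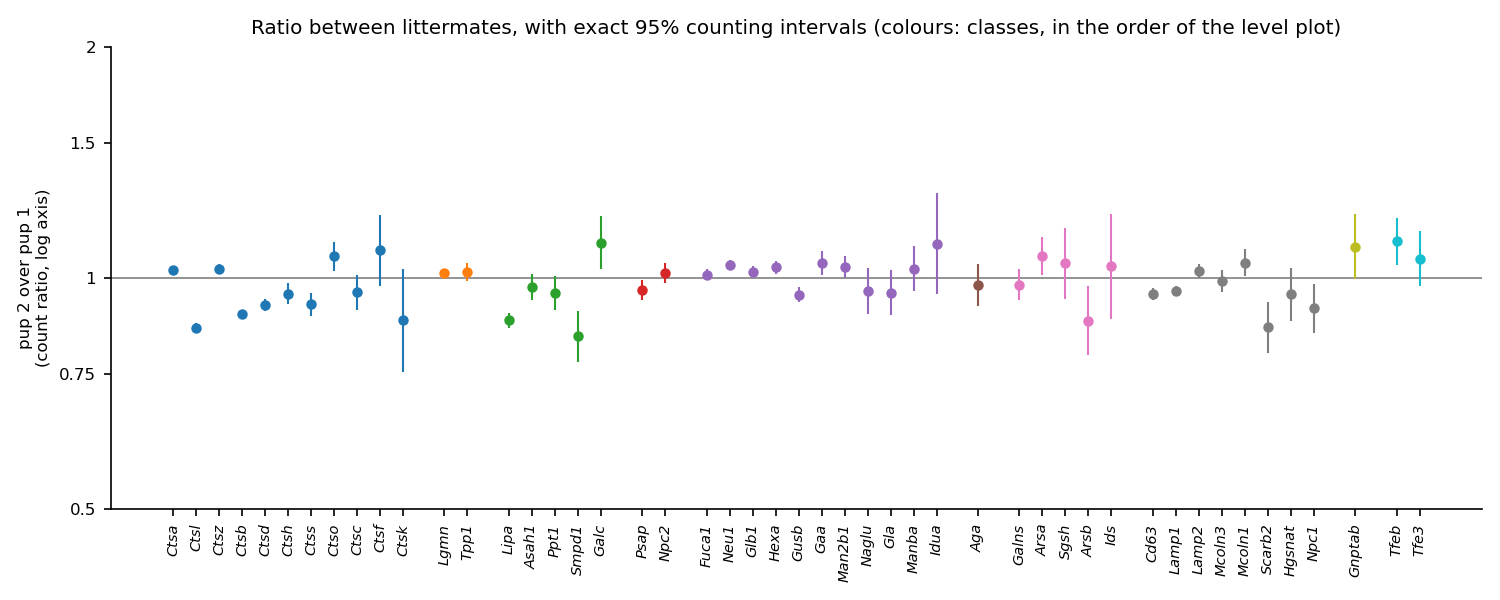
Ratio of pup 2 to pup 1 in scaled counts (log axis) for each lysosomal gene, with exact 95% counting intervals, coloured by class. All 48 points lie between 0.839 (Smpd1) and 1.12 (Tfeb), and the intervals are wider for genes with few reads such as Ctsk and Idua.

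The other parts of the lysosomal system were expressed unevenly. Of the V-ATPase list, the pump that acidifies the lysosome, 18 of 23 genes passed 1 TPM in each pup, and the median over the list was 90.6 ± 2.26 TPM (n = 2), against 59.1% of protein-coding genes passing. Atp6v0c, the proteolipid ring subunit, stood at 1094 and 1095 TPM in pups 1 and 2, Atp6v0e at 475 and 434 TPM, Atp6v0b at 360.2 and 359 TPM and Atp6v1f at 353 and 352 TPM. Isoforms best known from kidney were at or near 0: Atp6v1b1 and Atp6v1g3 had no read and Atp6v1c2 had 0 and 1.

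Of 27 other lysosomal hydrolases 25 passed 1 TPM, against 59.1% of all protein-coding genes. The carboxypeptidase Scpep1 stood at 154 TPM in pup 1 and 169 TPM in pup 2. The ribonuclease Rnaset2b stood at 235 and 234 TPM, but its near-identical copy Rnaset2a shares its reads, so the split is uncertain. Ctse, an intracellular aspartic protease chosen after its values were seen, was the only gene of that list over 2-fold apart, at 4.4 TPM in pup 1 and 13.3 TPM in pup 2 (ratio 2.84). Of 28 other membrane genes 25 passed 1 TPM, against the same 59.1%. They were led by the sialic acid exporter Slc17a5 (210 and 262 TPM), Laptm4a (194.6 and 194 TPM), Laptm4b (165 and 184 TPM) and Cd164 (145 and 152 TPM). Lamp3, of mature dendritic cells, was under 0.1 TPM in both.

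Genes of enzyme transport all reached 1 TPM and most cathepsin inhibitors did not, where 59.1% of all protein-coding genes did. All 14 genes of delivery to lysosomes passed 1 TPM, led by the retromer subunit Vps29 (265 and 259 TPM), Rab7 (180 and 175 TPM), Vps35 (108 and 116 TPM) and the mannose phosphate receptor M6pr (74.01 and 73.6 TPM). Of 14 cathepsin inhibitors 4 passed 1 TPM. Cstb, the cytosolic cystatin, stood at 1048 and 977 TPM, 4.08-fold (log2 2.03 ± 0.04, n = 2) above the secreted Cst3 at 252 and 245 TPM, and without length the log2 ratio was 1.42. Cst6 stood at 54.4 and 53.4 TPM and Stfa1, one of a cluster of near-identical copies, at 1.97 and 2.10 TPM. Cst8, Cst9 and Serpinb3a had no read.

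All 10 genes of apical endocytosis passed 1 TPM, against 59.1% of all protein-coding genes, and their median was 177 ± 14.1 TPM (n = 2). Fcgrt, the receptor that carries maternal antibody, stood at 2502 and 2227 TPM in pups 1 and 2, Rab11a at 1592 and 1645 TPM, Amn, a partner of cubilin, at 401 and 463 TPM, and the clathrin light chain Clta at 275 and 283 TPM. Cubilin itself, Cubn, stood at 25.8 and 33.4 TPM, against 1.29 and 1.28 TPM for megalin, Lrp2 (both named after their values were seen). Of 22 genes of TFEB control 20 passed 1 TPM, against the same 59.1%. They were led by the lysosomal scaffold genes Lamtor1 (143 and 142 TPM), Lamtor2 (137 and 147 TPM), Lamtor5 (136 and 139 TPM) and Lamtor4 (119 and 129 TPM).

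**Figure D5:**
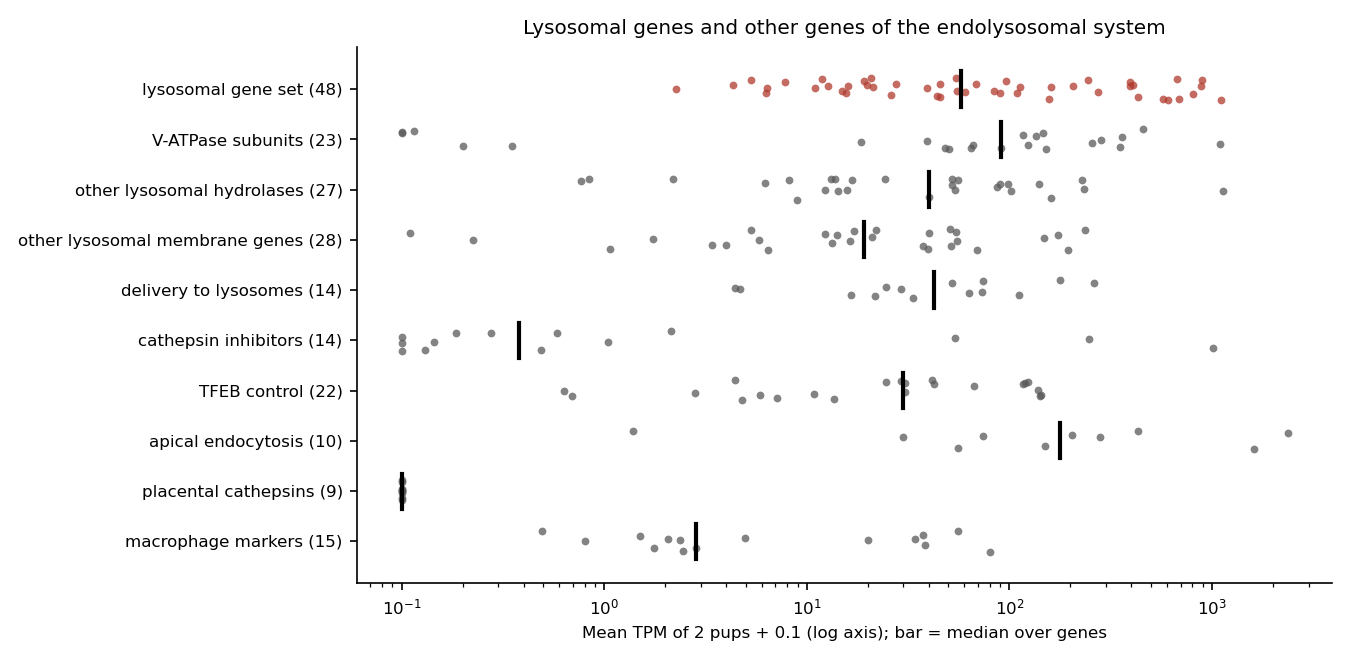
Mean TPM of the pups (plus 0.1, log axis) of each gene in the lysosomal gene set and in 9 other lists, with a bar at the median over genes and the number of genes in brackets. The 48 lysosomal genes all lie above 1 TPM, the placental cathepsins all lie at 0 TPM, and most cathepsin inhibitors lie under 1 TPM.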

How the data were processed

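The authors deposited, for each library, a gene table and a transcript table holding expected counts (reads shared between features are divided among them), TPM values, posterior means of both and, for transcripts, the percent of the gene's TPM, per the file headers. The assembly was mm10 with GENCODE M4, per the deposited text file; no source used here names the aligner, the quantifier or the strand setting. Names, transcript types and 1-based positions came from GENCODE M21 on GRCm38 (42462 of 43346 genes matched).

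From these, levels per pup were read as TPM, class contrasts were computed as differences of medians of log2(TPM + 0.1), and pairs as log2 ratios of TPM + 0.1, each as mean ± SD over 2 pups. For ratios between pups, expected counts were rounded and scaled by TMM library sizes (edgeR 4.0.16, R 4.3.3) and exact Clopper-Pearson intervals (SciPy 1.17.1), with a summed count of 10 or more for the 2-fold rule. That rule was tested on simulated data. Other tools were Python 3.11.15, numpy 2.4.6, pandas 2.3.3, matplotlib 3.10.9 and, as an alternative, DESeq2 1.42.0. The members and lists were chosen with earlier results of these data known, and the background of genes with as many reads was chosen after seeing the values. Named were all 48 genes, the genes of the pairs and, of each other list described, the 4 highest and up to 3 under 0.1 TPM in both pups; exceptions are marked, and some genes that meet this rule are left out of the text. Alternatives to the pseudocount, threshold, length scaling, class assignment, normalisation and estimator were tried, and each pup was left out in turn.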

Additional observations from a re-analysis of the deposited data

How the results depend on the processing

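The direction of all 4 class contrasts held under every alternative run, while their size did not. Without length, in CPM, log2 values were 0.11 for cathepsins minus glycosidases, 1.32 for cathepsins minus lipid hydrolases, 0.40 for cathepsins minus membrane proteins and -1.21 for lipid hydrolases minus glycosidases. With means over members in place of medians they were 0.91, 1.90, 0.60 and -0.99 in the same order. Of the other settings, a pseudocount of 1 TPM gave 2.45 for cathepsins minus lipid hydrolases, and another assignment of genes to classes gave 1.12 for cathepsins minus membrane proteins. With protein-coding transcripts alone, added after seeing the data, the values were 1.41, 1.98, 0.80 and -0.58 in that order. Leaving out each pup in turn gave ranges of 1.95 to 2.07, 2.46 to 2.49, 1.22 to 1.34 and -0.54 to -0.39 in the same order. With 2 pups this returns the value of the other pup, so it is no check beyond the SD. Among the 16 gene pairs, 2 changed direction, both without length: Ctsl/Ctsb (log2 -0.90) and Cd63/Lamp1 (-1.02), and Ctsd/Ctsb (-1.87), Gnptab/Gnptg (-0.62), Tfe3/Tfeb (-0.41) and Cstb/Cst3 (1.42) moved by over 1.5 times. Of 25 transcript shares compared with posterior means, 16 moved by less than 1 SD, and the largest move was 15.9 points for Tfe3-201. The count of genes at 1 TPM or more was 45 at 5 TPM. At 0.5 TPM or with either pup left out it could only stay at 48, since all 48 passed in both pups. The count over 2-fold apart stayed at 0 under all 5 alternatives, a 1.5-fold limit included. Dropping the minimum count could not change it, since the lowest summed count of the 48 genes was 650. The causes of these moves were not tested, except that the CPM values leave out length by construction. No paired analysis was possible because both libraries belong to 1 group.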
